A study of Mus musculus with 6 samples.

Results

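The 7 genes Ank1, Slc4a1, Klf1, Epor, Tal1, Gfi1b and Sptb serve red blood cell formation and were followed here in splenic naive B cells, a lineage that makes no haemoglobin. They were listed by name. Every CpG cytosine from 2 kb below the lower to 2 kb above the upper end of each gene (its span, build GRCm38) was taken if it had at least 10 reads in all 6 libraries. This gave 916 member cytosines of the 1457048 in the whole series, and the 7 genes are among 16431 protein-coding genes with a tested span. Enhanced reduced representation bisulfite sequencing (ERRBS) reads methylation in size-selected restriction fragments and so favours CpG-dense DNA. Methylation is given as the percent of reads with C at a cytosine, and the assay reads 5-hydroxymethylcytosine as C too.

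There were 3 libraries from Tet2 knockout (KO) and 3 from wild-type (WT) mice of the strain C57BL/6 with no treatment, all from DNA of naive B cells of the spleen. The labels do not give the mice's age, the design of the Tet2 allele, how the cells were purified or whether the 3 libraries of a genotype stand for 3 mice. The p-values therefore speak of spread among libraries, some of it possibly technical. Germinal centre (GC) B cells appear in the series' design text, but the title and every sample label say naive B cells, and the labels were followed.

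The enzyme TET2 oxidises methylated cytosines on the way to their demethylation, and the series asks how its loss changes methylation in these cells. The transcription factors TAL1, KLF1 and GFI1B, together with GATA1, direct erythroid commitment and maturation, in which globin, haem and membrane genes are switched on, and GFI1B acts mainly as a repressor. The erythropoietin receptor, encoded by Epor, supports the survival and expansion of committed progenitors. The red cell membrane is held by a spectrin network: beta-spectrin (Sptb) is tied through ankyrin-1 (Ank1) to the anion exchanger band 3 (Slc4a1). In B cells these genes belong to another lineage, and CpG-dense gene starts are usually unmethylated in most tissues whether or not the gene is active.

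The libraries held between 1551481 and 1626375 cytosines each, with a median coverage of 92 to 110 reads. Over Tet2 on chromosome 3, 6 cytosines between 133486189 and 133486297 reached 10 reads in no KO library and had 28 to 71 reads in every WT library. The reverse pattern was found at 0 Tet2 cytosines. Of 7 erythroid markers, the 3 with a measured span were Gata1, Epb42 and Hemgn, with mean levels between 72.8% and 95.2% in KO and between 70.1% and 94.7% in WT libraries. Of 10 B cell markers, 8 had a measured span, with mean levels between 0.236% and 89.1% in KO and between 0.146% and 87.4% in WT libraries. Their 3 measured start windows were at 0.109% for Ebf1, 0.527% for Pax5 and 38.5% for Cd22 in KO and at 0.0551% for Ebf1, 0.201% for Pax5 and 30.01% for Cd22 in WT libraries. Every library is bulk DNA, so a level averages over all cells in it, and another mix of cells cannot be told apart from another level per cell.

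RefSeq promoter sequences (GRCm38.p6, 250 bases before to 50 bases after a start) were matched for 5 of the 7 members. They are shown for the 3 promoters with CpGs measured in all 6 libraries, because they hold the positions behind the promoter values, and capitals mark those CpGs. All read 5′ to 3′ on the gene's strand. The Epor promoter is on the minus strand at chr9:21963527-21963826, the Sptb promoter on the minus strand at chr12:76710498-76710797, and the second Tal1 promoter on the plus strand at chr4:115057561-115057860.
Epor: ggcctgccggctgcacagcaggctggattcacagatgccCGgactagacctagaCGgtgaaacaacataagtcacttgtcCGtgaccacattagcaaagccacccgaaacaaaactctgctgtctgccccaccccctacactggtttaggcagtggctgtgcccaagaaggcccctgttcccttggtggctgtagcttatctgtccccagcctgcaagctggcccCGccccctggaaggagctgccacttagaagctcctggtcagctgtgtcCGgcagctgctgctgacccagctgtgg
Sptb: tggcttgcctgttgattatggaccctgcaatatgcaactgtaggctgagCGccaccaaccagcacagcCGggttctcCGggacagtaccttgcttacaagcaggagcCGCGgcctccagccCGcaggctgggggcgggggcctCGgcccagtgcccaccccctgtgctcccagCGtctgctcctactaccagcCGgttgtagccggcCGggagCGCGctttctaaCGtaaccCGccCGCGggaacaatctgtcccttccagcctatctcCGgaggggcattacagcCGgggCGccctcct
Tal1, second promoter: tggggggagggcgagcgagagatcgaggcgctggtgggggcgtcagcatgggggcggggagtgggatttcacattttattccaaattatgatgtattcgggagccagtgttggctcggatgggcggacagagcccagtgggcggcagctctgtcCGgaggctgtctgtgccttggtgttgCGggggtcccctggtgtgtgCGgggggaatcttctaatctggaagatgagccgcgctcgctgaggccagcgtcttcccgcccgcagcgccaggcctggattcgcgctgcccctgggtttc
The Epor sequence has 7 CpGs, of which 5 were measured, at 6 cytosines over both strands. The Sptb sequence has 21 CpGs, of which 19 were measured at 23 cytosines, and that of Tal1 has 22, of which 3 were measured. Over all 32851 RefSeq promoters the median was 7 CpGs, with quartiles at 3 and 20. The letters GATAAG, searched on both strands as a GATA factor motif, occur in the Epor sequence and not in those of Sptb and the second Tal1 promoter; 7.44% of all promoters hold them. The letters CCNCNCCC, a motif of the KLF family, occur in all 3 on either strand, as in 49.5% of all promoters. The first Tal1 promoter and those of Klf1 and Gfi1b had 0 measured CpGs. Ank1 and Slc4a1 had no entry.

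The 3 promoters had very different levels. The Epor promoter was at 47.4, 63.4 and 71.9% in the KO libraries and at 65.1, 67.9 and 70.1% in the WT libraries. Sptb was at 0.703% ± 0.422 in KO and 0.780% ± 0.327 in WT libraries, and the second Tal1 promoter at 0.463% ± 0.802 in KO and 0.654% ± 1.13 in WT libraries (SD, n = 3 each). The groups overlapped in all 3. Thus the start of the erythropoietin receptor gene was partly methylated in naive B cells of both genotypes, while the Sptb promoter was nearly free of methylation. The same held for the second Tal1 promoter at its 3 measured CpGs, of 22 in the sequence. At Epor, KO library 1 was the lowest of the 6, and the 3 measured CpGs farthest upstream had between 26 and 35 reads per library.

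Along the members, levels were close to 0 or close to complete at most cytosines. Of the 916 cytosines, 60.7% had a mean over the 6 libraries below 10%, 14.6% lay between 10 and 90%, and 24.7% were at 90% or above. Over all cytosines of the series these shares were 60.6, 13.2 and 26.2%. With every cytosine weighted equally, the 916 averaged 32.7% ± 0.156 in KO and 32.7% ± 0.199 in WT libraries (SD, n = 3 each).

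Among the transcription factors, Klf1 (gene 16596, chromosome 8, 84901982 to 84905291, plus strand) is the master activator of adult globin and erythroid membrane genes. Its 47 cytosines held 44 below 10%, and the tiles at 84902001 to 84903000 and 84903001 to 84904000, which cover the first part of the gene, were at 0.561% ± 0.207 and 0.154% ± 0.135 in KO and at 0.567% ± 0.247 and 0.463% ± 0.127 in WT libraries (SD, n = 3 each). The cytosines of these tiles lie between 84902723 and 84903566, all inside the gene, and the Klf1 promoter had 0 measured CpGs. The other 3 cytosines lie past the gene's end, from 84907026 to 84907157, at 97.8% ± 2.25 in KO and 94.3% ± 2.83 in WT libraries.

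Tal1 (gene 21349, chromosome 4, 115056426 to 115071755, plus strand) is needed to form all blood lineages and stays on in red cell precursors. Of its 120 cytosines, 109 were below 10%. They are 56 cytosines in the tile over the start, all downstream of it from 115056522 on, and 10 in the adjoining tile. Another 43 are in the tile at 115063001 to 115064000 inside the gene. The last of these was at 0.604% ± 0.0538 in KO and 0.568% ± 0.228 in WT libraries. Between the start and that tile, the one at 115059001 to 115060000 was at 60.9% ± 1.17 in KO and 61.2% ± 2.51 in WT libraries, and beyond it the tile at 115068001 to 115069000 was at 95.9% ± 1.24 in KO and 95.6% ± 1.71 in WT libraries (SD, n = 3 each).

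Gfi1b (gene 14582, chromosome 2, 28609450 to 28621982, minus strand) was the opposite case. Only 4 of its 22 cytosines were below 10%, and its 4 tiles lay between 51.2 and 96.5% in KO and between 48.1 and 95.9% in WT libraries. The tile nearest its start, 1.48 kb downstream, was at 68.8% ± 1.94 in KO and 67.7% ± 2.23 in WT libraries (SD, n = 3 each). The window of 1 kb on each side of its start held too few cytosines to be tested.

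Epor (gene 13857, chromosome 9, 21958897 to 21963576, minus strand) had a partly methylated start and a nearly unmethylated middle. The tile over its start, with 7 cytosines, was at 63.9% ± 8.61 in KO and 65.0% ± 2.36 in WT libraries. The next tiles downstream, centred 1.08 and 2.08 kb from the start with 17 and 16 cytosines, were at 1.47% ± 0.309 and 4.10% ± 0.522 in KO and at 1.65% ± 0.317 and 3.12% ± 1.19 in WT libraries. The tile at 21959001 to 21960000, near the other end, was at 96.8% ± 1.18 in KO and 95.5% ± 2.03 in WT libraries (SD, n = 3 each). The low cytosines of Epor thus lay inside the gene and not in its promoter.

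Of the membrane genes, Ank1 (gene 11733, chromosome 8, 22974836 to 23150501) gave 405 cytosines. Its strand is not given in the tables used here, so its ends are named by coordinate. Low blocks lay at both ends: 73 and 61 cytosines in the tiles at 22974001 to 22975000 and 22975001 to 22976000 averaged 3.77 and 2.20% over the 6 libraries, and 15 and 9 cytosines in the tiles at 23149001 to 23150000 and 23150001 to 23151000 averaged 6.18 and 0.483%. A further block of 85 cytosines at 23058001 to 23059000, inside the gene, was at 2.23% ± 0.177 in KO and 2.15% ± 0.317 in WT libraries. The 28 cytosines at 23035001 to 23036000, where the lncRNA gene Gm51563 lies, were at 13.96% ± 1.01 in KO and 13.9% ± 5.02 in WT libraries (SD, n = 3 each). Mir486, a microRNA gene abundant in red cell precursors, lies inside Ank1 at 23142555 to 23142682; the nearest tiles, at 23141001 to 23142000 and 23143001 to 23144000, averaged 94.4 and 88.8% over the 6 libraries.

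Sptb (gene 20741, chromosome 12, 76580488 to 76710547, minus strand) had 249 cytosines. The 57, 63 and 5 cytosines of the tiles around its start averaged 4.07, 0.614 and 7.39%, and 14 of its other 15 tiles averaged between 85.4 and 96.8%. The exception was the tile at 76676001 to 76677000, 34.0 kb downstream of the start, at 48.3%. Slc4a1 (gene 20533, chromosome 11, 102348820 to 102365281, strand not given) had 29 cytosines and 0 below 10%. Its 6 tiles were at 35.5 to 96.7% in KO and at 48.5 to 97.9% in WT libraries, and the lowest was the one over its upper end.

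With every cytosine weighted equally, the members' mean levels over KO libraries ran from 71.9% ± 0.828 for Gfi1b and 70.3% ± 1.83 for Slc4a1 through 45.4% ± 0.223 for Sptb, 31.9% ± 0.449 for Ank1 and 20.7% ± 1.82 for Epor to 7.85% ± 0.224 for Tal1 and 6.55% ± 0.289 for Klf1. The WT libraries gave 70.9% ± 0.596 for Gfi1b, 72.7% ± 1.67 for Slc4a1, 45.5% ± 0.552 for Sptb, 31.5% ± 0.163 for Ank1, 20.7% ± 0.268 for Epor, 7.66% ± 0.305 for Tal1 and 6.50% ± 0.0296 for Klf1 (SD, n = 3 each). Gfi1b and Slc4a1 overlapped in their libraries, and the other neighbours in this order did not. The genes differ in which of their cytosines were measured, so this order is one of the measured cytosines.

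**Figure D1:**
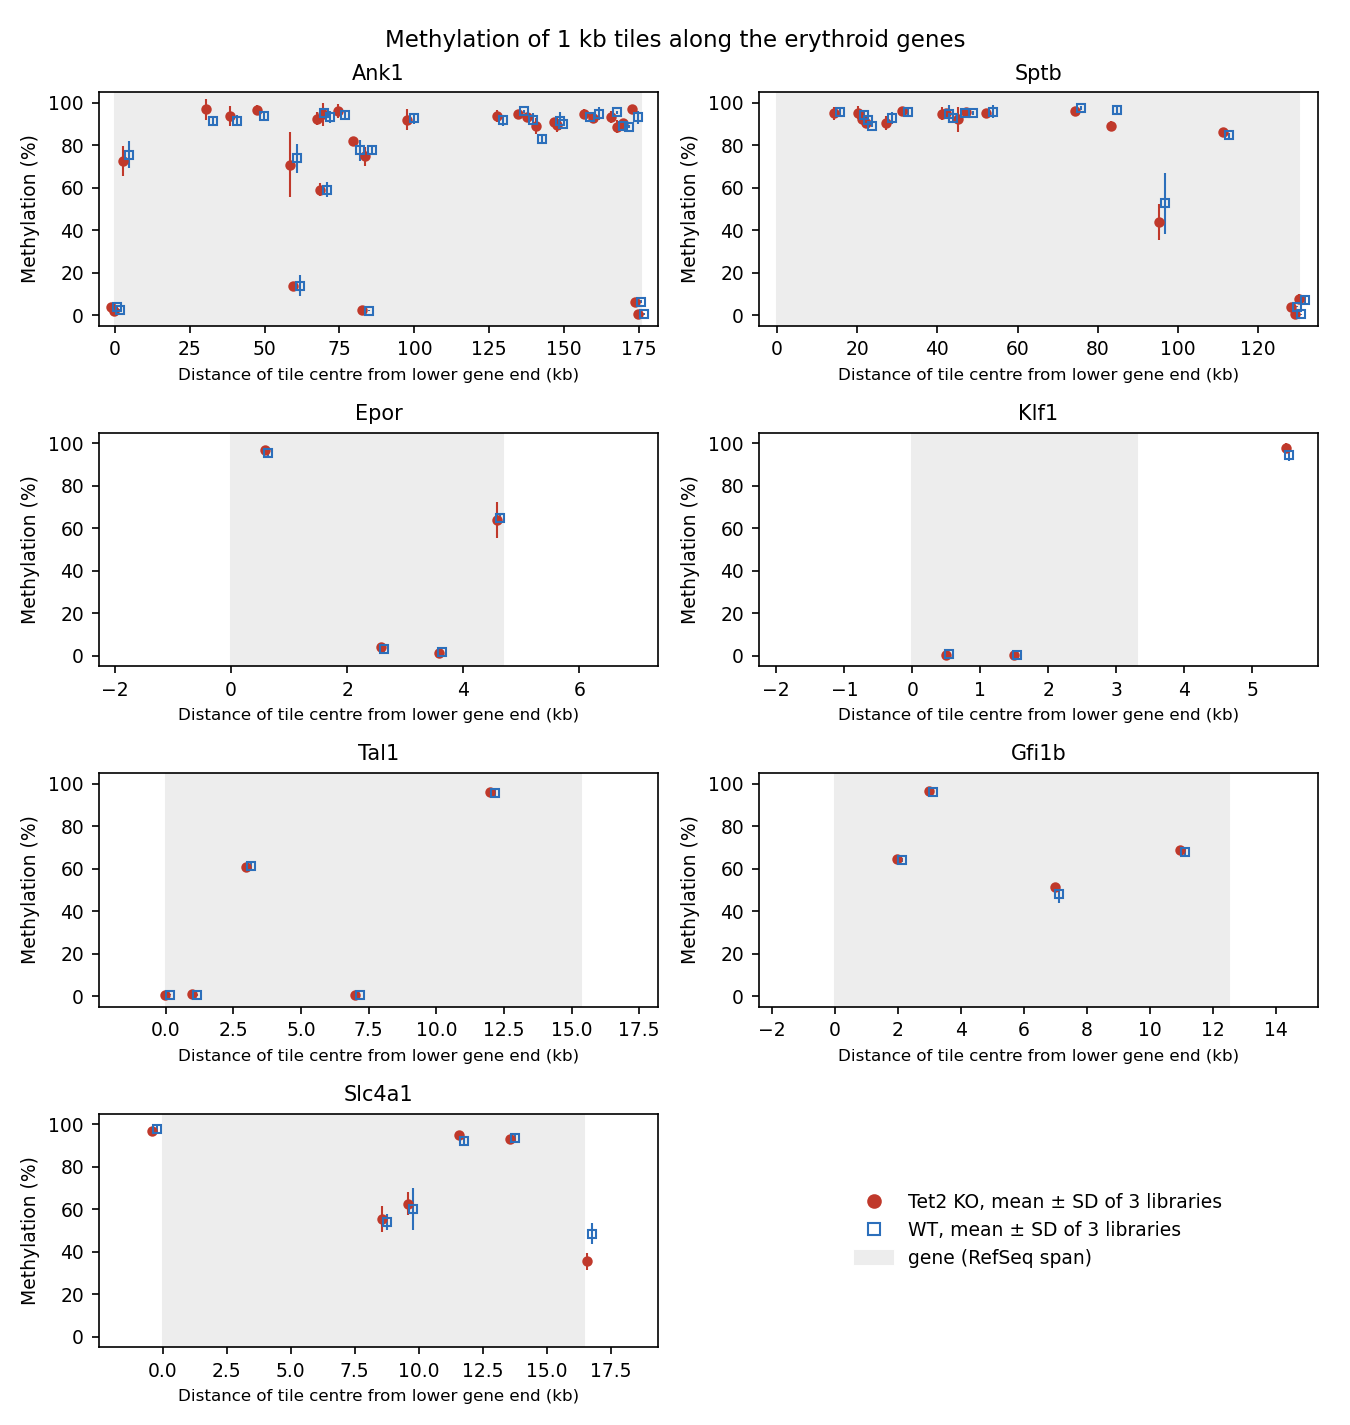
Methylation (%) of each 1 kb tile with at least 3 cytosines against the distance of its centre from the lower gene end (kb), for the 7 erythroid genes. Red circles are KO and blue squares WT, drawn side by side around the true position, as mean ± SD of 3 libraries; grey marks the gene. Tal1 has tiles near 0 at the start in both genotypes. Klf1 and Epor have low tiles inside the gene, and Gfi1b and Slc4a1 have none.

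For the comparison of genotypes, the reads of all cytosines of a span were first pooled in each library and tested with a quasi-binomial model of C and T counts. Ank1 was at 29.4, 29.8 and 29.1% in the KO libraries and at 23.1, 24.6 and 26.1% in the WT libraries, a difference of 4.87 percentage points. Sptb was at 39.1, 37.7 and 35.5% in KO and at 26.2, 31.8 and 34.4% in WT libraries, a difference of 6.58 points. In both, the lowest KO library stood above the highest WT library, by a small margin for Sptb. In the quasi-binomial model the unadjusted p was 0.000486 for Ank1 and 0.0178 for Sptb, and the Benjamini-Hochberg adjusted p over all spans was 0.130 and 0.151, so neither was called. Without WT library 1, the Sptb difference was 4.33 points. Calls required both 10 points of difference or more and an adjusted p under 0.05.

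Epor was at 13.1, 13.8 and 13.7% in KO and at 12.1, 11.6 and 11.7% in WT libraries, a difference of 1.74 points (quasi-binomial adjusted p = 0.299). Klf1 was at 6.06, 6.53 and 6.88% in KO and at 5.66, 5.30 and 5.93% in WT libraries, a difference of 0.856 points (quasi-binomial adjusted p = 0.519). These groups did not overlap either, although the gaps were small. Tal1, at 6.82% ± 0.632 in KO and 6.50% ± 0.219 in WT libraries, Gfi1b, at 75.7% ± 1.51 in KO and 73.8% ± 0.384 in WT libraries, and Slc4a1, at 73.4% ± 2.05 in KO and 73.0% ± 4.12 in WT libraries, overlapped (SD, n = 3 each). Their adjusted p in the quasi-binomial model lay between 0.651 and 0.999.

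Of the 7 spans, 0 were called, as were 0% of all 16431 in each direction. Among the members, 4 had every KO library above every WT library, against a background of 24.9%, and 0 had the reverse (1.16%). An unadjusted p under 0.05 was reached by 2 with KO higher (background 21.9%) and 0 with KO lower (background 0.189%). The difference was above 0 in 7 of 7, against 81% of all spans. The members' median difference was 1.74 points and that of all spans 1.001.

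The reads were not spread over the cytosines alike in the genotypes. In Ank1, cytosines below 10% took 62.8, 61.6 and 63.1% of the reads in the KO libraries and 70.2, 68.4 and 66.5% in the WT libraries. In Sptb they took 53.8, 54.0 and 57.2% in KO and 66.7, 60.97 and 58.0% in WT libraries. Epor and Klf1 also had a lower share in every KO than in every WT library, at 83.2% ± 1.05 in KO against 84.9% ± 0.629 in WT libraries for Epor and at 93.8% ± 0.115 in KO against 94.6% ± 0.519 in WT libraries for Klf1 (SD, n = 3 each). Those are the same 4 genes whose pooled levels did not overlap, whereas Tal1 and Gfi1b overlapped in both measures and Slc4a1 has no such cytosine. Both measures come from the same reads and are not independent. Over the whole series, such cytosines took 63.9, 62.4 and 65.6% of reads in KO and 71.4, 69.4 and 66.9% in WT libraries, and of 14582 spans that hold any, 71.4% had a lower share in KO.

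When each cytosine counted equally, the differences of Ank1, Sptb, Epor and Klf1 nearly vanished, while Gfi1b kept 1.02 of 1.79 points. In the fit, Ank1 then differed by 0.303 points and Sptb by -0.142, with unadjusted p of 0.251 and 0.671 in the same moderated fit. The median difference over all spans also fell, from 1.001 points with pooled reads to 0.154 with equal weight. Over the 7 members, 0 had groups that did not overlap. Of all 16431 spans, 14.4% had KO above WT and 350 had KO below. An unadjusted p under 0.05 in this fit was reached by 0 members (9.74% of all spans in either direction). Slc4a1 had the largest difference by size, at 72.3, 69.8 and 68.7% in KO and 71.1, 72.5 and 74.4% in WT libraries. The library means differ by -2.39 points, and the fit, which weights libraries by their reads, gave -2.64 points. The Slc4a1 groups overlapped, with an unadjusted p of 0.0659 in this fit. With pooled reads the Slc4a1 difference was 0.00870 points.

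Within classes of cytosines, no member separated the genotypes. The 249 Ank1 cytosines below 10% averaged 1.97% ± 0.240 in KO and 1.91% ± 0.138 in WT libraries, and its 91 at 90% or more averaged 94.96% ± 0.692 in KO and 94.5% ± 0.345 in WT libraries. The 118 low cytosines of Sptb averaged 1.09% ± 0.191 in KO and 0.961% ± 0.0576 in WT libraries, and its 97 high ones 95.4% ± 0.313 in KO and 95.4% ± 0.269 in WT libraries (SD, n = 3 each). At 10 to 90%, Ank1's 65 cytosines averaged 58.1% ± 0.934 in KO and 56.9% ± 1.38 in WT libraries, and Slc4a1's 17 averaged 53.5% ± 2.28 in KO and 57.3% ± 2.66 in WT libraries.

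**Figure D2:**
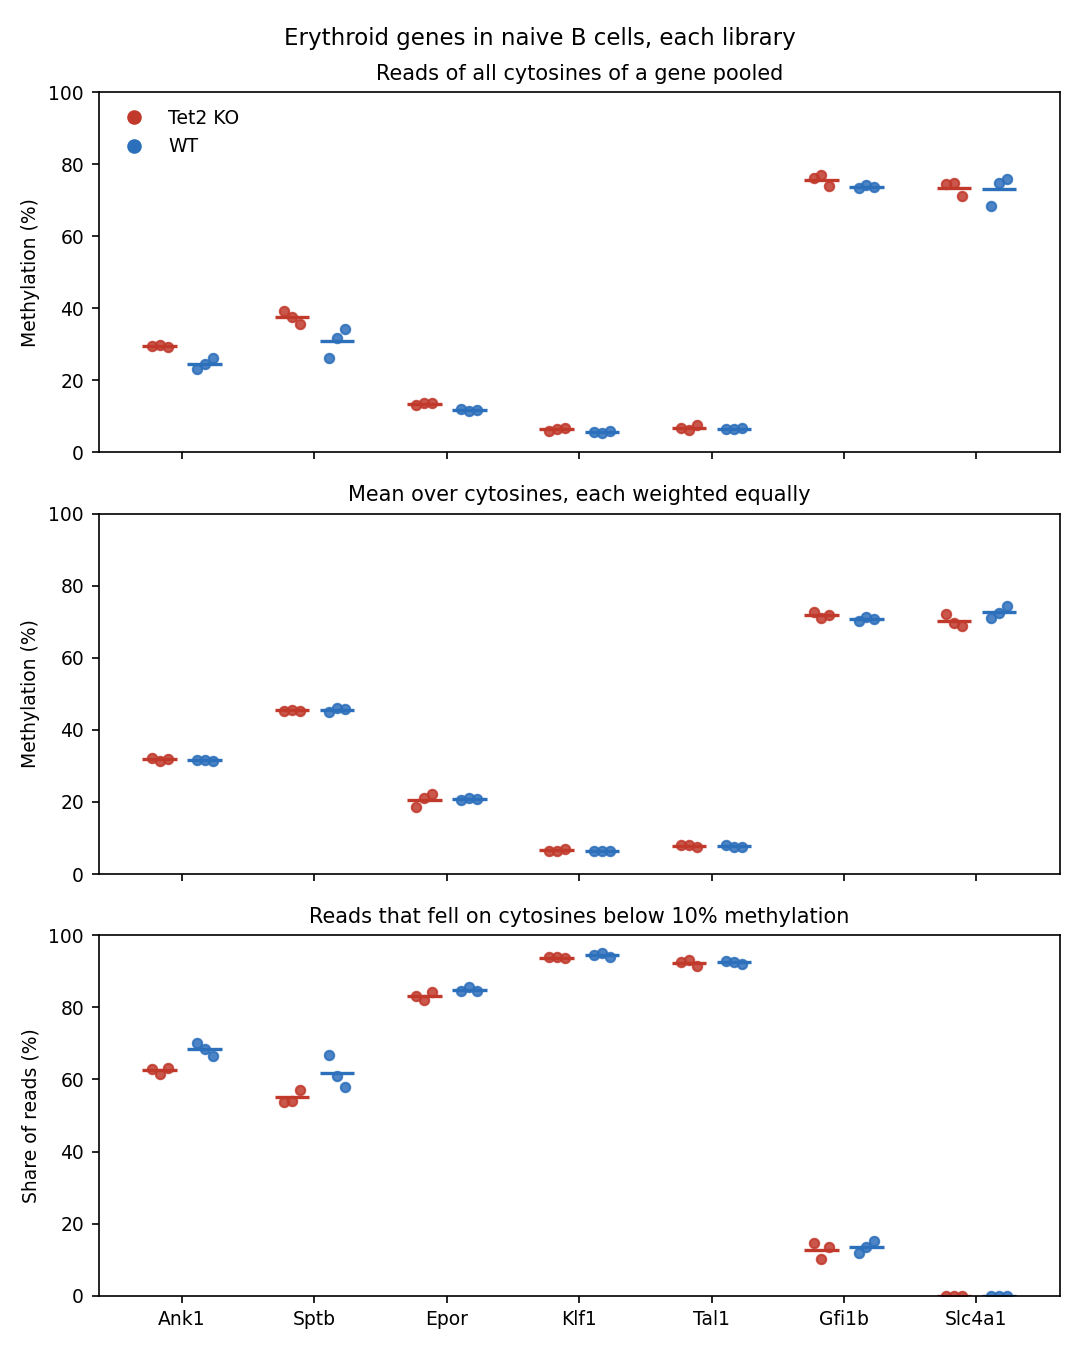
Each library's methylation (%) with the reads of a gene's cytosines pooled (top), with each cytosine weighted equally (middle), and the share of reads (%) on cytosines below 10% methylation (bottom). Points are libraries (KO red and left, WT blue and right) and bars are group means. Ank1 is at 29.1 to 29.8% in KO and 23.1 to 26.1% in WT libraries in the top panel, and the genotypes overlap in the middle panel.

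At the scale of 1 kb tiles, 70 member tiles were tested, 30 in Ank1, 18 in Sptb, 6 in Slc4a1, 5 in Tal1, 4 each in Epor and Gfi1b and 3 in Klf1. Of these, 0 were called, against a background of 0.112% called higher in KO and 0% called lower among 108802 tiles. An unadjusted p under 0.05 was reached by 2 tiles with KO higher (background 5.74%) and 1 with KO lower (background 1.46%). KO stood above WT in every library in 2 (background 8.35%) and below in 3 (background 3.36%). The difference was above 0 in 41 tiles (background 59.8%) and below 0 in 29, and the median was 0.230 points, beside 0.176 over all tiles. The smallest adjusted p of the quasi-binomial model was 0.578.

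Both tiles with KO higher were in Ank1. The tile at 23116001 to 23117000, 142 kb above the lower gene end, was at 93.0, 86.0 and 87.9% in the KO libraries and at 85.1, 81.5 and 81.8% in the WT libraries. The groups did not overlap, and all 6 cytosines had a higher mean in KO. The difference was 6.19 points (quasi-binomial unadjusted p = 0.0177, adjusted p = 0.589), and 4.05 points without KO library 1. The nearest measured cytosine below, at a distance of 2669 bp, was at 98.4% ± 2.79 in KO and 93.5% ± 6.996 in WT libraries. The nearest above, 170 bp from the last of the tile, had the opposite order of means, at 89.8% ± 3.44 in KO and 97.0% ± 1.22 in WT libraries (SD, n = 3 each). The tile at 23148001 to 23149000, next to the low block at the upper gene end, was at 97.7, 94.98 and 97.9% in KO and 93.0, 96.3 and 90.04% in WT libraries, so the groups overlapped (4.04 points, quasi-binomial adjusted p = 0.661). It was at 1.67 points with a coverage minimum of 20 reads and at 2.47 points without WT library 3.

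The tile with KO lower was in Sptb, at 76664001 to 76665000, 46.0 kb downstream of the start. It was at 90.4, 90.4 and 86.5% in the KO libraries and at 96.6, 94.3 and 98.7% in the WT libraries. The groups did not overlap, and 3 of its 4 cytosines were lower in KO, for a difference of -7.70 points (quasi-binomial unadjusted p = 0.0160, adjusted p = 0.578). The intermediate Sptb tile at 76676001, named after its values were seen, was at 42.1, 53.1 and 36.2% in KO and 36.6, 57.6 and 64.1% in WT libraries. Its libraries varied more within a genotype than any of the other Sptb tiles and overlapped (-9.83 points, quasi-binomial adjusted p = 0.751).

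The largest tile difference by size of any member was at the upper end of Slc4a1. The 4 cytosines from 102365223 to 102365265, just inside the gene's upper end, were at 38.9, 36.4 and 31.1% in the KO libraries and at 43.4, 49.0 and 53.0% in the WT libraries. Every KO library was below every WT library, and all 4 cytosines had a lower mean in KO. The difference was -12.4 points, with a median coverage of 34.5 reads per cytosine (quasi-binomial unadjusted p = 0.0559, adjusted p = 0.710). The nearest measured cytosines lay 2698 bp below and 7172 bp above and were at 99.3% ± 1.18 and 91.6% ± 3.91 in KO and at 96.9% ± 2.99 and 90.9% ± 5.75 in WT libraries, so this low stretch stood alone in the measured DNA.

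In the other members, the tile with the smallest p had a difference of 3.18 points past the end of Klf1, 1.02 points in the middle of Epor, 0.535 points just after the Tal1 start and 3.69 points inside Gfi1b. All 4 overlapped between genotypes, with adjusted p between 0.793 and 0.940 in the quasi-binomial model. Leaving out 1 library moved each by more than 1.5 times: Klf1 to 1.88 points without WT library 3, Epor to 1.66 without WT library 2, Tal1 to 0.112 without KO library 1 and Gfi1b to 1.70 without WT library 3. The remaining tiles whose groups did not overlap were small in difference: the Klf1 tile at 84903001 to 84904000 differed by -0.304 points and the Sptb tile at 76603001 to 76604000 by 1.42 points. Of the 21 member tiles between 10 and 90%, the median difference was 0.448 points, beside 1.08 over all 29505 such tiles.

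**Figure D3:**
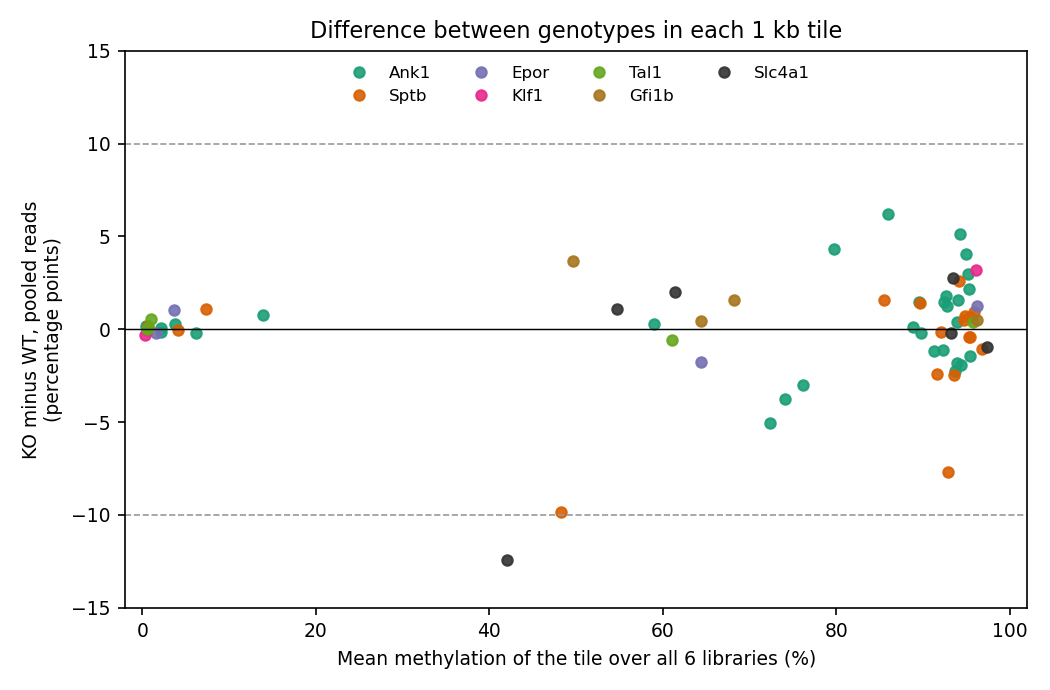
Difference in methylation (KO minus WT of pooled reads, percentage points) of the 70 member tiles against their mean methylation (%) over all 6 libraries, coloured by gene. Dashed lines mark 10 points in each direction; only the Slc4a1 tile at -12.4 points lies beyond them, and its adjusted p was 0.710.

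Gene ends were read as windows of 1 kb on each side of an end, and 9 windows of 6 members were tested. Of these, 0 were called, against 0.00569% called higher and 0% called lower among all windows, and 0 had an unadjusted p under 0.05 (backgrounds 4.95% higher and 0.876% lower). The difference was above 0 in 5 (background 63.8%). The start windows of Klf1, Tal1 and Sptb, with 28, 63 and 114 cytosines, were at 0.561% ± 0.207, 0.798% ± 0.366 and 1.17% ± 0.169 in KO and at 0.567% ± 0.247, 0.642% ± 0.189 and 1.03% ± 0.0128 in WT libraries (SD, n = 3 each). The differences were -0.0205 points for Klf1, 0.0989 for Tal1 and 0.158 for Sptb. In the Klf1 window, all measured cytosines lay downstream of the start, from 84902723 to 84902924. Those of the Tal1 window also lay downstream of its start only, from 115056522 on. Both end windows of Ank1 were low as well, at 3.16% ± 0.302 and 4.38% ± 0.0540 in KO and at 3.07% ± 0.503 and 4.33% ± 0.485 in WT libraries. The Epor start window, which held the cytosines of its start tile, differed by -1.74 points and overlapped. The windows at the other ends of Epor and Slc4a1, with 4 and 3 cytosines, were at 96.8% ± 1.18 and 96.7% ± 1.88 in KO and at 95.5% ± 2.03 and 97.9% ± 1.84 in WT libraries. The upper window of Slc4a1 held the same 4 cytosines as the tile above (quasi-binomial unadjusted p = 0.0741, adjusted p = 0.850). It was the 1 window whose groups did not overlap, with KO below, a pattern of 2.56% of all windows; 0 had KO above, beside 8.11% of all.

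Single cytosines gave 0 calls among the 819 that could be tested, against 0.000731% called higher and 0% called lower among 1095119. An unadjusted p under 0.05 was reached by 43 with KO higher (background 5.31%) and 32 with KO lower (background 3.17%). The difference was above 0 at 412 (background 52.1%) and below 0 at 406. KO stood above WT in every library at 29 (background 3.95%) and below at 31 (background 2.99%). The smallest adjusted p of the quasi-binomial model was 0.528.

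The cytosine with the smallest p in Epor, 21963339 on the forward strand and 0.237 kb downstream of the start, had the largest difference among those named by this rule. It was at 73.6, 77.8 and 73.0% in the KO libraries and at 45.5, 40.9 and 51.8% in the WT libraries, on 22 to 56 reads. KO stood clearly above WT, by 27.4 points (quasi-binomial unadjusted p = 0.00389, adjusted p = 0.551). A difference larger in size, named after its values were seen, lay at Ank1 22978474, at 40.7, 12.3 and 24.0% in KO and 52.8, 52.0 and 56.5% in WT libraries, or -29.0 points with an adjusted p of 0.551 in the same model. The promoter cytosine at 21963787, on the other side of the start, had the reverse order of means at 55.7% ± 25.8 in KO and 78.3% ± 6.61 in WT libraries (SD, n = 3 each) and overlapped. The other cytosines of the Epor start tile also overlapped, so the difference was not shared by the 7 cytosines of the tile.

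In Slc4a1 the cytosine with the smallest p, 102357117 on the forward strand and inside the gene, was at 23.0, 22.0 and 11.5% in KO and at 30.1, 34.5 and 37.5% in WT libraries. In Tal1 it was 115059957 on the reverse strand, in the intermediate tile, at 6.20, 9.56 and 12.7% in KO and at 21.9, 22.7 and 13.2% in WT libraries. Neither overlapped between genotypes, although KO library 3 and WT library 3 of Tal1 lay close together. The differences were -15.2 and -10.1 points (quasi-binomial adjusted p = 0.554 and 0.555).

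Ank1 and Sptb had the members' smallest p at positions that read as 0 or 100% in every KO library. Ank1 23035452, on the reverse strand in the block over Gm51563, was at 0% in all 3 KO libraries and at 12.0, 3.52 and 9.03% in the WT libraries. Sptb 76622994, on the forward strand, was at 100% in all 3 KO libraries and at 93.4, 92.5 and 82.7% in the WT libraries. Neither was called, with differences of -7.17 and 10.8 points and an adjusted p of 0.528 for each in the quasi-binomial model. Klf1 84907026 differed by 5.64 points and Gfi1b 28616723 by 9.85 points, the second with overlapping groups. Without WT library 3 these were 3.70 and 4.65 points, and the Sptb cytosine 7.09 points.

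**Figure D4:**
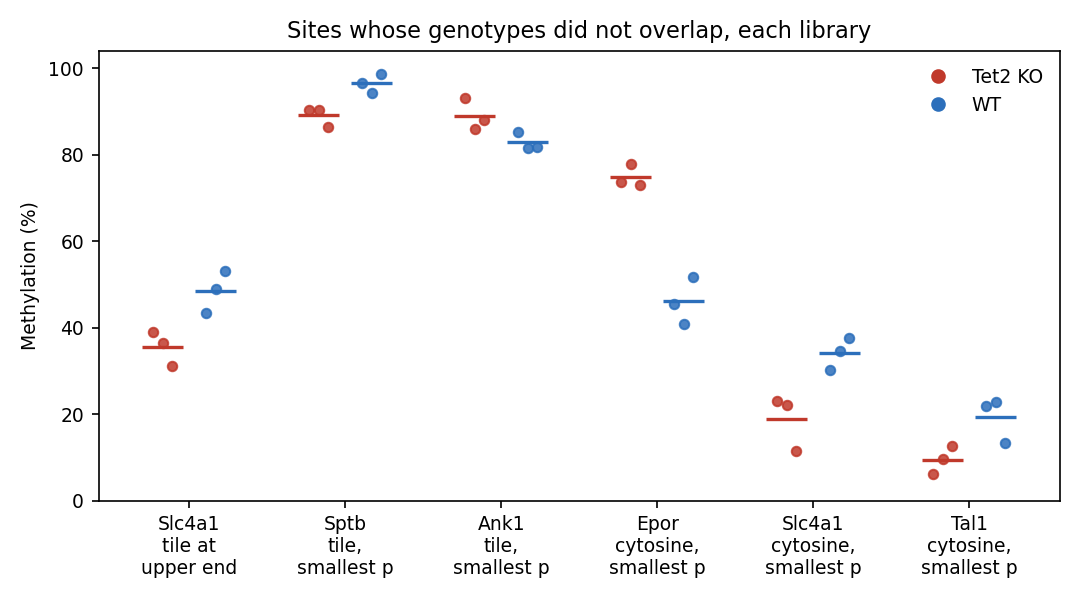
Methylation (%) in each library of 6 named tiles and cytosines whose genotypes did not overlap. Points are libraries (KO red and left, WT blue and right) and bars are group means. KO lies below WT at the Slc4a1 tile (31.1 to 38.9% against 43.4 to 53.0%) and above it at the Epor cytosine (73.0 to 77.8% against 40.9 to 51.8%).

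Other genes of red cell formation were read from a list of 62, of which 48 had a tested span and 285 tiles. It holds erythroid regulators, haem synthesis enzymes, membrane and surface proteins and relatives of the members. Of the 48 spans 0 were called, 9 or 18.8% had every KO library above every WT library (24.9% of all spans), and 8 had an unadjusted p under 0.05 with KO higher (21.9% of all spans) and 0 with KO lower. With equal weight per cytosine 2 were higher and 1 lower at that p, beside 1425 higher and 175 lower of all 16431 spans. The median difference of the 48 was then 0.228 in place of 1.24 points, and that of all spans 0.154 in place of 1.001. The smallest pooled p belonged to Myb, a progenitor transcription factor, at 6.58% ± 0.931 in KO and 3.34% ± 0.593 in WT libraries, Add1, an adducin of the spectrin network, at 18.3% ± 3.17 in KO and 10.5% ± 1.44 in WT libraries, and Kit, the stem cell factor receptor, at 52.2% ± 3.01 in KO and 39.5% ± 4.83 in WT libraries (SD, n = 3 each). With equal weight their differences were 0.0157, -0.0203 and 0.313 points, as in Ank1 and Sptb far below the pooled ones.

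Of the 285 tiles, 1 was called (0.351%), beside 0.112% of all tiles called higher in KO. It lies inside Tmcc2, on chromosome 1 from 132380001 to 132381000, with 7 cytosines at 65.9, 64.9 and 57.7% in KO and 33.0, 41.1 and 40.04% in WT libraries. Every KO library was above every WT library, and the difference of pooled reads was 23.9 points (quasi-binomial adjusted p = 0.00624). The call was lost without moderation of the overdispersion (adjusted p = 0.903), in limma (adjusted p = 0.704) and in edgeR (adjusted p = 0.884), where the difference was 23.9, 24.8 and 23.9 points. The tiles next in p were in Rhd (11.6 points, adjusted p = 0.238) and near the lower end of Bcl11a (0.281 points, adjusted p = 0.289), both not called by the quasi-binomial model.

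The gene whose 6 pooled span values were nearest to a member's was named by the root mean square difference over the 6 libraries, among 13722 genes with at least 20 cytosines. It was Cotl1 for Ank1 (0.509 points), Zfp827 for Sptb (0.972 points), Klhl3 for Slc4a1 (1.38 points), Brd3 for Epor (0.484 points), Runx1t1 for Klf1 (0.218 points) and Esrra for Tal1 (0.385 points). Cotl1 was at 29.3, 30.3 and 29.9% in KO and at 23.6, 25.1 and 25.6% in WT libraries, and it is on neither list of erythroid genes.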

How the data were processed

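ERRBS was measured in 6 libraries of mouse naive B cells. The reads were processed with Bismark on GRCm38, per the submitters' processing notes; no version is given there. Coverage was deposited as an unnormalized read count for each CpG cytosine and strand, at least 10 in each table, and the deposited methylation is the percent of reads with C and with T, per the file headers. Counts of C and T were recovered from percent times coverage, and 100% were whole numbers within the last decimal of the percent. PCR reads carry no molecular identifiers here, and depth therefore limits counting error only.

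Gene spans came from the RefSeq table of GRCm38.p6; exons and introns were not used here. Features were spans (2 kb flanks, at least 5 cytosines), 1 kb tiles and windows of 1 kb on each side of gene ends (at least 3), and single cytosines. Each was fitted genome-wide with a quasi-binomial model, with the overdispersion (4 residual degrees of freedom) moderated as by limma and held at 1 or above, and p-values adjusted by Benjamini-Hochberg over all features of a kind. Features without both C and T reads were not tested. Values are mean ± SD over 3 libraries of a genotype, and differences are KO minus WT of pooled reads; with equal weight per cytosine, library levels are weighted by their reads. An exact permutation test of 3 against 3 cannot go below 0.1 and was not used.

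The members and gene lists were chosen with earlier results of these data known. Named were all members, the tile and cytosine with the smallest p in each, tiles with an unadjusted p under 0.05, end windows, and from the other list any called gene and the 3 spans and tiles with the smallest p. Some results that this rule would name are not reported here. Alternatives were a coverage minimum of 20, a limit at the 99.9th percentile, autosomes, each library left out, a replicate block, no moderation, equal weight per cytosine, limma, edgeR, flanks of 0 and 5 kb, tiles shifted by 500 bp or with at least 5 cytosines or 1, end windows of 500 bp and, chosen after seeing the data, weighting by mean coverage. Python 3.11.15, scipy 1.17.1, R 4.3.3, limma 3.58.1 and edgeR 4.0.16 were used, after tests on simulated data.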

Additional observations from a re-analysis of the deposited data

How the results depend on the processing

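Of 566 values of 37 results recomputed under 21 alternative settings, 544 kept their direction, 22 reversed, and under 0 settings was any member feature called. The Ank1 span differed by 4.13 to 5.55 points and the Sptb span by 4.33 to 8.33 points when 1 library was left out. The Sptb span was at -0.142 points with equal weight per cytosine. With pooled reads and no moderation, the unadjusted p of the quasi-binomial model was 0.00581 for the Ank1 span and 0.0720 for the Sptb span. In limma these were 0.0415 and 0.0557, and in edgeR 0.00804 and 0.0273. The Slc4a1 span was at -2.64 points with equal weight, -1.46 with weights by mean coverage, -0.299 and -0.168 with flanks of 0 and 5 kb, and -1.94 to 1.44 with a library left out. With no flanks the Klf1 span was at -0.0977 points. Leaving out a library gave -0.0189 to 0.657 points for the Tal1 span, -0.0534 to 0.326 for its lower end, -1.73 to 0.0438 for the lower end of Slc4a1, -0.174 to 0.357 and -0.196 to 0.216 for the lower and upper ends of Ank1, -0.142 to 0.125 for the lower end of Klf1 and -4.83 to 2.65 for the upper end of Epor. The lower end of Ank1 was at -0.0957 points in a window of 500 bp, and that of Klf1 at 0.00135 with weights by mean coverage and 0.00930 in limma. The Add1 span was at -0.0203 points with equal weight and -0.142 with weights by mean coverage. The cause of these reversals was not tested.

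The count of called tiles among other erythroid genes was 1 and became 0 with a replicate block, without moderation, in limma and in edgeR. The replicate numbers are shared between genotypes, and the labels do not say whether they pair the libraries. Deviations of same-numbered libraries correlated with r of 0.0481, -0.0293 and -0.00736 over 29505 tiles. Differently numbered libraries of the 2 genotypes ranged from -0.0391 (KO 3 with WT 1) to 0.0533 (KO 3 with WT 2). With 3 libraries per genotype, these correlations cannot decide whether libraries were paired. With the block, the Tmcc2 tile had an adjusted p of 0.764. With each library left out, it ranged from 0.00345 to 0.0323. Of the member features, limma gave an unadjusted p under 0.05 in 1 of 7 spans, 3 of 70 tiles and 1 of 9 ends, and edgeR in 2, 1 and 0. Shares over all features are not given for these tools, so these counts have no background to be read against. The smallest adjusted p of a member feature was 0.274 in limma and 0.168 in edgeR. The low stretch of Slc4a1 (median 34.5 reads) and the Epor start cytosine (22 to 56 reads) rest on fewer reads than the members' median coverages of 72 to 189, so single libraries are less precise there.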
